A study of Homo sapiens with 62 samples.

Results

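Immunoglobulin light chain transcripts were followed in GM12878, a human B-lymphoblastoid cell line immortalised with Epstein-Barr virus. The 8 genes are the lambda constant genes IGLC1, IGLC2, IGLC3 and IGLC7, the lambda variable gene IGLV2-23, the lambda-like genes IGLL5 and IGLL1, and the kappa constant gene IGKC. They were taken by symbol, as 8 of 55040 gene rows. Another 172 rows carry names of the light chain loci.

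The 20 libraries came from pools of 10 GM12878 cells that were divided into 10 parts and then handled as single cells. In the numbered set the titles count 10 splits, and in the unnumbered set 10 splits carry only a library number (232, 233 and 246 to 253). Both sets were untreated cells of the same line, and cDNA was made with a SMARTer kit and sequenced after Nextera tagging, per the labels' protocols. The labels do not say whether a set was 1 pool, and the titles of 9 of the 10 unnumbered records, but of 0 of the 10 numbered ones, are marked as superseded. The other 42 of the 62 samples were not analysed here.

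An antibody pairs heavy with light chains, and a light chain is encoded in either the kappa or the lambda locus. In each locus a B cell joins a variable (V) segment to a joining segment, and splicing then attaches a constant (C) segment. A clone therefore usually expresses a single light chain type with a single V segment. The lambda locus holds several closely related constant genes, each with its own joining segment, so their copies are hard to tell apart in short reads.

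Nearly all light chain signal in usable rows of the 20 libraries came from the lambda locus. Kappa constant signal could not enter here, because IGKC had no usable status in any library. IGLC2, IGLC3 and IGLV2-23 stood at rank 2, 5 and 7 by mean FPKM (fragments mapped per kilobase of transcript and per megafragment of depth) among 49115 usable rows. All 3 were lower in numbered than in unnumbered splits, with no overlap of the sets. Within the lambda total the shares of IGLC2 and IGLC3 differed by less than the spread between splits. In a comparison added after the values were seen, IGLV6-57 held 0.598% of the summed FPKM of 4 V genes in numbered splits. It held 3.34% in unnumbered splits.

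The coding sequences of the constant genes are shown because their likeness sets how far the rows can be told apart. The first 120 coding bases are given, on the plus strand of chromosome 22, from GENCODE 29 (GRCh38). Capitals in IGLC2 mark positions at which any of the other genes differs, and capitals in the others mark positions that differ from IGLC2.
IGLC2: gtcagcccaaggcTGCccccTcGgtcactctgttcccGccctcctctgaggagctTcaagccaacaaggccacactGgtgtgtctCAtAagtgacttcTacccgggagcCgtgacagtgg
IGLC3: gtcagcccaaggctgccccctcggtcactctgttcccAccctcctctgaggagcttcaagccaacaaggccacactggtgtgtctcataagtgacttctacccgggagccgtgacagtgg
IGLC1: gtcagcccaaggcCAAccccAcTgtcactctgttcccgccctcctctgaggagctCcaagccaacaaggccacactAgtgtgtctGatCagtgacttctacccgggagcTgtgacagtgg
IGLC7: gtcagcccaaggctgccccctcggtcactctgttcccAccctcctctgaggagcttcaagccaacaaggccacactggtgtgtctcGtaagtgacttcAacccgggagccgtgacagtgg

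Over 317 coding bases IGLC2 and IGLC3 differed at 3 positions (99.1% identity), IGLC2 and IGLC1 at 15, and IGLC2 and IGLC7 at 13. Of the 363 stretches of 100 bases in the IGLC2 transcript, which is the read length, 109 (30.0%) occur unchanged in IGLC3 and 0 in IGLC1 or IGLC7. All 361 such stretches of IGLC1 occur in IGLL5, whose last exon overlaps IGLC1. Of the 413 stretches of 50 bases in the IGLC2 transcript, 240 (58.1%) occur in IGLC3, 48 in IGLC1 and 0 in IGLC7. Of the 392 in the IGLC7 transcript, 37 occur in IGLC3. That transcript has 441 bases, whereas the IGLC7 row spans 320. The division of signal among these rows, above all between IGLC2 and IGLC3 and between IGLC1 and IGLL5, is therefore uncertain. The sum of IGLC1, IGLC2, IGLC3 and IGLC7 is also given.

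Depth estimated from the confidence bounds of 10 mitochondrial genes was 11.8 to 20.6 megafragments in numbered splits. Among unnumbered splits, 247 had 0.128 and 252 had 7.79 megafragments, and the other 8 had 23.3 to 38.7. The summed FPKM of 7 B cell markers was 7573 to 12989 in numbered and 3855 to 6368 in unnumbered splits. It was mainly CD74 (means of 5222 FPKM in numbered and 2328 FPKM in unnumbered splits) and HLA-DRA (4292 and 2437 FPKM). MS4A1, CD79A and CD79B also had higher means in numbered splits. CD22 (17.8 and 22.0 FPKM) and PAX5 (2.13 and 2.30 FPKM) had higher means in unnumbered splits. CD3D, GNLY, CD14, S100A8 and the globin genes were listed at 0 in every library. Other markers of the same lists were above 0. CD2 reached 53.4 FPKM in numbered and 5.61 FPKM in unnumbered splits, CD3E 29.9 and 0 FPKM, NKG7 92.2 and 243 FPKM, and CSF1R 53.8 and 1.65 FPKM in the same order, and their part in the results was not tested.

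Kappa could not be quantified. IGKC, the kappa constant gene at chr2:89156674-89157196 in the coordinates of the files, was listed at 0 in all 20 libraries. Its status in every one of them was LOWDATA, by which Cufflinks marks a locus that was too complex or too thinly covered for an estimate. That status alone did not set a row to 0, since 772 of the 5797 rows with it in every library held a value above 0 in at least 1 library. No kappa share, kappa to lambda ratio or difference between the sets was therefore computed for the constant genes.

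The variable genes of the kappa locus gave the only other view of kappa. All 81 IGKV rows had a usable status and were listed at 0 in every library, whereas the summed FPKM of IGLV rows was 7527 to 12902 in numbered splits and 18437 to 40261 in unnumbered splits. A 0 with a usable status does not by itself show absence. The shorter rows IGLJ2 to IGLJ7 also had a usable status and were listed at 0 throughout, beside high lambda constant rows. A pair of longer rows overlaps IGKC in the files. IGKJ5, with a row of 34954 bases, had 0.147 FPKM in unnumbered split 252 and 0 elsewhere, and AC096579.13 was above 0 in 3 libraries with at most 0.00243 FPKM in unnumbered split 250.

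IGLC2, a lambda constant gene at chr22:23243156-23243617, was the most abundant light chain row. It had 14641, 18097 and 22835 FPKM (lowest, median and highest) in numbered splits, against 28538, 40532 and 70411 FPKM in unnumbered splits. Every numbered split lay below every unnumbered one, and split 247 stood highest. The means were 18121 ± 2836 FPKM in numbered and 42848 ± 11042 FPKM in unnumbered splits (SD, n = 10 each), and the log2 difference was -1.22 (SE 0.11, limma adjusted p = 3.10e-08).

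IGLC3, its near copy at chr22:23248512-23248973, followed the same order. It had 7981, 9924 and 12487 FPKM (lowest, median and highest) in numbered splits, against 15146, 22204 and 41624 FPKM in unnumbered splits. The sets again did not overlap. The means of 10091 ± 1478 FPKM in numbered and 23764 ± 6987 FPKM in unnumbered splits (SD, n = 10 each) gave a log2 difference of -1.20 (SE 0.12, limma adjusted p = 9.46e-08).

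IGLV2-23, a V gene, encodes most of the antigen-binding part of a light chain and lies at chr22:23040274-23040892. It had 6241, 8010 and 10676 FPKM (lowest, median and highest) in numbered splits, against 14644, 17626 and 31474 FPKM in unnumbered splits. No numbered split reached the level of any unnumbered split. The means were 8065 ± 1410 FPKM in numbered and 18778 ± 4809 FPKM in unnumbered splits (SD, n = 10 each), with a log2 difference of -1.20 (SE 0.11, limma adjusted p = 4.13e-08).

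Of the 5 members that could be tested, these 3 fell in numbered splits. Over all 10506 tested rows, 558 (5.31%) passed in either direction and 145 (1.38%) were higher in unnumbered splits, while 413 (3.93%) were higher in numbered splits. Rows in which all numbered splits lay below all unnumbered splits made up 0.352%, and 3 of the 5 tested members were among them. That share covers tested rows of all levels, and the share among rows as abundant as these members was not worked out. These 3 are not separate cases, since IGLC2 and IGLC3 share sequence and V and C segments are spliced together. The median log2 difference of all tested rows was 0.35, but 0.056 without splits 5 to 8, 0.11 with a pseudocount of 10 and 0.66 with a pseudocount of 0.1. Of the calls 74.0% were higher in numbered splits, which became 62.3% with scaling to size factors and 60.6% with every library scaled to the same summed FPKM (TPM), where the median was 0.22.

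IGLC1 and IGLC7 were listed at a far lower level than IGLC2. Whether the fragments in these rows came from the 2 genes themselves or from their near copies was not tested. IGLC1, at chr22:23237555-23238014, had 6.72, 10.0 and 18.4 FPKM (lowest, median and highest) in numbered splits, against 17.8, 21.4 and 47.8 FPKM in unnumbered splits. Only numbered split 5, the highest of its set, overlapped the unnumbered set. The log2 difference was -1.13 (SE 0.56), which did not pass by limma (adjusted p = 0.319) but passed by the exact rank-sum test over all rows (adjusted p = 0.000917).

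IGLC7, at chr22:23264766-23265085, had 7.99, 15.8 and 26.3 FPKM (lowest, median and highest) in numbered splits, against 6.33, 22.95 and 72.4 FPKM in unnumbered splits. The sets overlapped widely. The log2 difference was -0.49 (SE 0.60, limma adjusted p = 0.666), and the exact rank-sum test gave an adjusted p of 0.591.

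**Figure D1:**
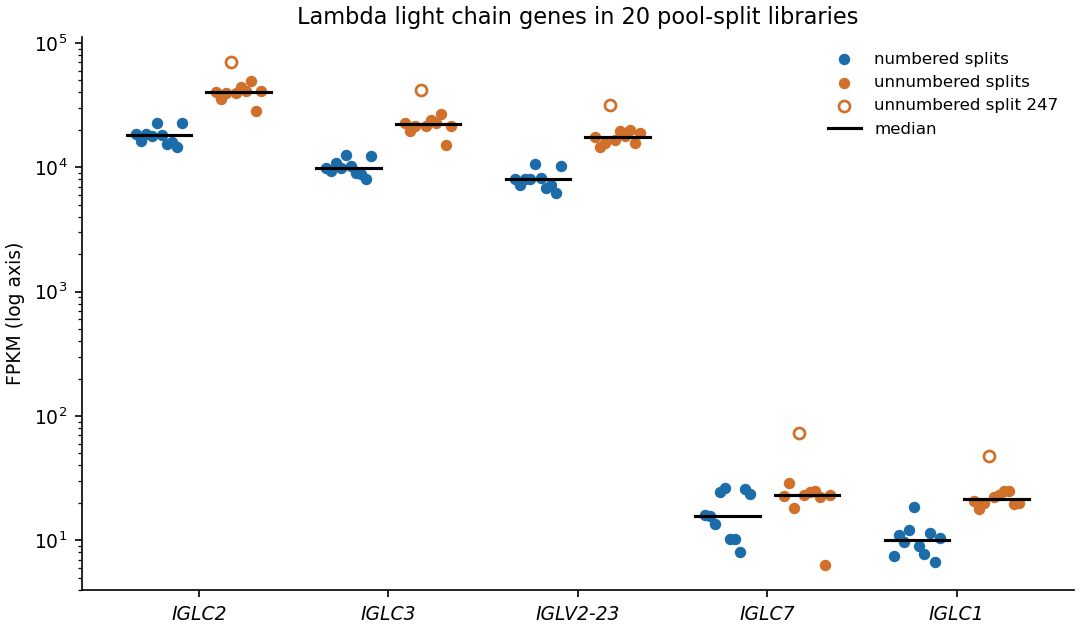
FPKM (log axis) of the 5 lambda members above 1 FPKM in each of the 20 splits, with numbered splits left of unnumbered ones, a bar at each median and an open circle for split 247. IGLC2, IGLC3 and IGLV2-23 show no overlap between the sets, IGLC1 overlaps only through numbered split 5, and IGLC7 overlaps widely.

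The number of fragments behind each value was worked out from its confidence bound. In IGLC2 the median was 71224 fragments in numbered and 332660 in unnumbered splits, whereas IGLC1 rested on 41.8 fragments in numbered and 170 in unnumbered splits. IGLC7 rested on at most 54.7 fragments in numbered and on at most 121 in unnumbered splits. In split 247 IGLC1 rested on 1.13 fragments and IGLC7 on 1, so its 47.8 and 72.4 FPKM carry little information. The numbers for IGLC7 were whole in 3 of 20 libraries but a multiple of 1/6 in 20 of 20, to within 0.03 of such a step. These fragments were thus counted in fractions, and no source used here gives the rule that divided them.

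IGLL5 and IGLL1 were listed at or near 0. IGLL5, a lambda-like gene at chr22:23229960-23238005 that needs no rearrangement, was listed at 2.9e-08 to 1.0e-05 FPKM and never reached 1 FPKM. Since every 100-base stretch of IGLC1 also occurs in IGLL5, this value depends on how shared fragments were divided and does not show that IGLL5 was absent. IGLL1 encodes lambda5, the surrogate light chain of precursor B cells, at chr22:23915312-23922495, and was listed at 0 in all 20 libraries with a usable status. Neither passed the minimum mean of 1 FPKM, and IGKC was left out by its status, so 5 of the 8 members were tested.

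The sum of the 4 lambda constant rows was 22655, 28171 and 35351 FPKM (lowest, median and highest) in numbered splits, against 43710, 62787 and 112155 FPKM in unnumbered splits. It made up 1.68 to 2.19% of all FPKM in numbered and 3.38 to 9.30% in unnumbered splits. The sets did not overlap on either scale. The log2 difference of -1.21 had an adjusted p of 0.00036 by a 2-sided permutation test over the 6 sums and shares of lambda genes. Without split 247 the unnumbered mean was 61608 ± 8873 FPKM (SD, n = 9), against 66662 ± 18041 FPKM with it (n = 10).

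Runs of experiment numbers lie within the sets, so run and set cannot be told apart in this difference. Within the numbered set, splits 5 to 8 form a run apart from the other 6 splits, and their mean log2 lambda sum was 14.77 ± 0.25 (SD, n = 4) against 14.77 ± 0.21 (SD, n = 6) in the others, with p = 0.99 by an exact permutation test. The summed FPKM of the plasma cell markers SDC1, PRDM1 and XBP1 had a median of 2.14 in numbered splits (0 to 185.8) and of 76.9 in unnumbered splits (0.0629 to 163). By gene, the median of PRDM1 was 0 FPKM in numbered and 29.3 FPKM in unnumbered splits. The medians of XBP1 were 1.77 and 1.89 FPKM in the same order, and that of SDC1 was 0 in both sets. The part of these markers, and of the B cell markers given above, in the lambda difference was not tested. In libraries made from parts of pooled cells, fewer cells of a type and less RNA per cell cannot be told apart.

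Within the lambda sum the shares of IGLC2, IGLC3 and IGLC1 differed between the sets by less than the spread between splits. IGLC2 held 64.1 ± 0.6% of it in numbered and 64.4 ± 0.7% in unnumbered splits, and IGLC3 held 35.8 ± 0.6% and 35.5 ± 0.7% in the same order (SD, n = 10 each, adjusted permutation p = 0.615 for both). The ratio of IGLC2 to IGLC3 was 1.72 to 1.86 in numbered and 1.69 to 1.89 in unnumbered splits. IGLC1 held 0.0366 ± 0.0088% in numbered and 0.0359 ± 0.0047% in unnumbered splits (SD, n = 10 each, adjusted permutation p = 0.958).

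The share of IGLC7 was 0.0616 ± 0.0253% of the lambda sum in numbered and 0.0376 ± 0.0135% in unnumbered splits (SD, n = 10 each). It was higher in numbered splits by an adjusted permutation p of 0.0384, with overlapping sets. This call was lost when any of 14 of the 20 libraries was left out, with an adjusted p of up to 0.0759, the value without numbered split 9.

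The ratio of IGLV2-23 to the constant genes also differed by less than that spread. Its FPKM divided by the lambda sum was 0.285 ± 0.009 in numbered and 0.284 ± 0.028 in unnumbered splits (SD, n = 10 each, adjusted permutation p = 0.958). Unnumbered split 252 had the highest ratio, 0.356, and the next one was 0.301 in split 253.

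Across the splits of a set IGLC2, IGLC3 and IGLV2-23 moved together. IGLC3 against IGLC2 had a Pearson r of 0.986 in numbered and 0.997 in unnumbered splits (n = 10 each, adjusted permutation p = 0.00016 for both), with Spearman rho of 0.964 (adjusted p = 0.00019) and 0.927 (adjusted p = 0.00098). Without the 2 splits farthest from the median of IGLC2, r was 0.954 in numbered and 0.981 in unnumbered splits. Values within a library share its depth and scaling, and IGLC2 and IGLC3 also share sequence.

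IGLV2-23, which lies elsewhere in the locus, also followed IGLC2. Splicing attaches a C segment to a joined V segment, so V and C rows may cover the same transcripts and are not separate cases. Its r was 0.990 in numbered (adjusted permutation p = 0.00019) and 0.959 in unnumbered splits (adjusted permutation p = 0.0004), with rho of 0.915 (adjusted p = 0.0011) and 0.976 (adjusted p = 0.00019). Without the 2 farthest splits r was 0.971 in numbered and 0.878 in unnumbered splits. These are 4 of 8 relations computed.

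The low constant rows followed less closely. IGLC1 against IGLC2 had an r of 0.607 in numbered (adjusted permutation p = 0.088; rho 0.358, adjusted p = 0.332) and 0.935 in unnumbered splits (adjusted p = 0.0024; rho 0.806, adjusted p = 0.012), and 0.215 and 0.763 without the 2 farthest. IGLC7 against IGLC2 had an r of 0.446 in numbered (adjusted permutation p = 0.25; rho 0.261, adjusted p = 0.471) and 0.917 in unnumbered splits (adjusted p = 0.0143; rho 0.394, adjusted p = 0.302). Without the 2 farthest splits the last value was -0.36, so that relation rests on those splits, among them split 247.

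**Figure D2:**
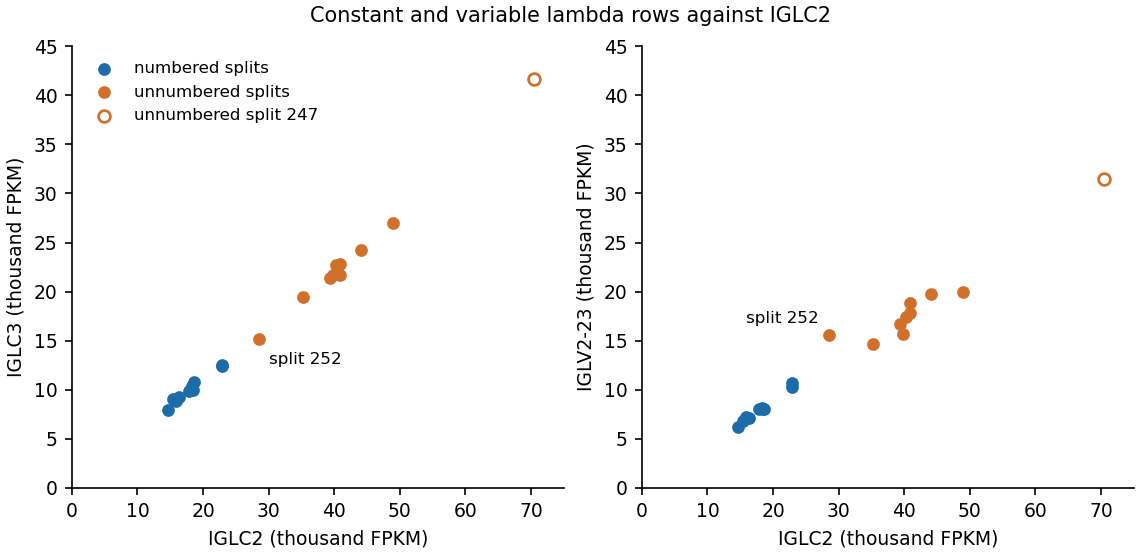
IGLC3 (left) and IGLV2-23 (right) against IGLC2 in each split, all in FPKM divided by 1000 on linear axes, with an open circle for split 247. In the left panel the splits of both sets lie along a single line through a ratio of IGLC2 to IGLC3 of 1.69 to 1.89, and in the right panel split 252, with 15564 FPKM of IGLV2-23 and 28538 FPKM of IGLC2, has the highest IGLV2-23 level for its IGLC2 level.

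The coefficient of variation (CV) of IGLC2 was 0.157 in numbered and 0.258 in unnumbered splits, beside a median CV of 0.197 over the 45 rows at 5000 FPKM or more in numbered splits and 0.206 over 23 such rows in unnumbered splits. IGLC1 had a CV of 0.322 in numbered and 0.359 in unnumbered splits, and IGLC7 had 0.407 and 0.646. Rows at 10 to 30 FPKM had a median CV of 1.74 in numbered (2421 rows) and 2.11 in unnumbered splits (2232 rows). The unnumbered CVs of IGLC2, IGLC1 and IGLC7 rest largely on split 247. Without it the CV among the other 9 unnumbered splits was 0.141 for IGLC2, 0.116 for IGLC1 and 0.295 for IGLC7, beside medians of 0.188 at 5000 FPKM or more and 2.04 at 10 to 30 FPKM. This calculation was added after the values were seen.

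Of the 73 other IGLV rows, 5 were above 0 in any library and 4 reached 1 FPKM. The 4 V genes below are shown because their sequences tell how separate their rows are. Stretches of the aligned coding sequences are given in GRCh38, plus strand of chromosome 22, from GENCODE 29. Capitals in IGLV2-23 mark positions that differ in IGLV2-14, and capitals in the others mark bases that differ from IGLV2-23 or have no partner in it.
IGLV2-23: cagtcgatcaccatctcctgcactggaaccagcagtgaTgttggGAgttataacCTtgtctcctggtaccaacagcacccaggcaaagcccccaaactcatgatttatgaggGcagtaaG
IGLV2-14: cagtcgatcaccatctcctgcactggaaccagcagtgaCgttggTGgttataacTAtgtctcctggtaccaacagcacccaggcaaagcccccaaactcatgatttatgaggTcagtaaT
IGLV6-57: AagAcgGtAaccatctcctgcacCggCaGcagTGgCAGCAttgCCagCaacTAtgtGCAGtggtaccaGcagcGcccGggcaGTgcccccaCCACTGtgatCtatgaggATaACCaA
IGLV4-69: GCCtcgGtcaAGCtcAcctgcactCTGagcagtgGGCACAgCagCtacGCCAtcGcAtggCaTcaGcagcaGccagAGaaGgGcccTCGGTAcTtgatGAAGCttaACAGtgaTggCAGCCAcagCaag

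IGLV2-23 and IGLV2-14 were 96.2% identical in coding bases and shared 0 stretches of 100 bases, but 70 of the 453 stretches of 50 bases in the IGLV2-23 transcript. IGLV2-23 was 73.0% identical to IGLV6-57 and 66.5% to IGLV4-69, with 0 shared stretches of 50 bases. Whether a cell carries these V genes rearranged cannot be read from gene rows.

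IGLV2-14, the near relative, followed IGLV2-23. It had 978, 1314 and 1888 FPKM (lowest, median and highest) in numbered splits, against 1714, 3046 and 6270 FPKM in unnumbered splits. Only numbered splits 5 and 10 exceeded the lowest unnumbered split, 252. The log2 difference was -1.18 (SE 0.17, limma adjusted p = 3.92e-05). The level of IGLV2-14 was 15.7 to 18.2% of that of IGLV2-23 in numbered and 11.01 to 19.9% in unnumbered splits.

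IGLV6-57 had the largest log2 difference of the 4 V genes. It had 0, 40.4 and 159 FPKM (lowest, median and highest) in numbered splits, against 271, 747 and 1333 FPKM in unnumbered splits. The sets did not overlap, and numbered split 2 was listed at 0. The means of 55.2 ± 44.3 FPKM in numbered and 785 ± 318 FPKM in unnumbered splits (SD, n = 10 each) gave a log2 difference of -4.34 (SE 0.65, limma adjusted p = 4.98e-05).

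The levels by run were as follows. Splits 5 to 8 had 22.6 to 62.4 FPKM of IGLV6-57, and the other numbered splits 0 to 159 FPKM. Unnumbered splits 232 and 233 had 617 and 450 FPKM, and the other 8 had 271 to 1333 FPKM.

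IGLV4-69 had 149, 348 and 695 FPKM (lowest, median and highest) in numbered splits, against 293, 854 and 1342 FPKM in unnumbered splits. The sets overlapped. The log2 difference was -1.07 (SE 0.31, limma adjusted p = 0.0388), and it lost the threshold when any of 10 of the 20 libraries was left out, with an adjusted p of at most 0.0678.

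As shares of the summed FPKM of the 4 V genes, IGLV6-57 held 0.598 ± 0.590% in numbered and 3.34 ± 1.24% in unnumbered splits (SD, n = 10 each, adjusted permutation p = 0.00032 over the 4 shares). IGLV2-23 held 81.6 ± 1.3% in numbered and 79.7 ± 1.7% in unnumbered splits (adjusted permutation p = 0.0356, or 0.0653 without split 247). IGLV2-14 held 13.8 ± 0.7% in numbered and 13.4 ± 1.7% in unnumbered splits, and IGLV4-69 held 4.003 ± 1.678% and 3.56 ± 1.34% in the same order (adjusted permutation p = 0.552 for both). This comparison was added after the values were seen.

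**Figure D3:**
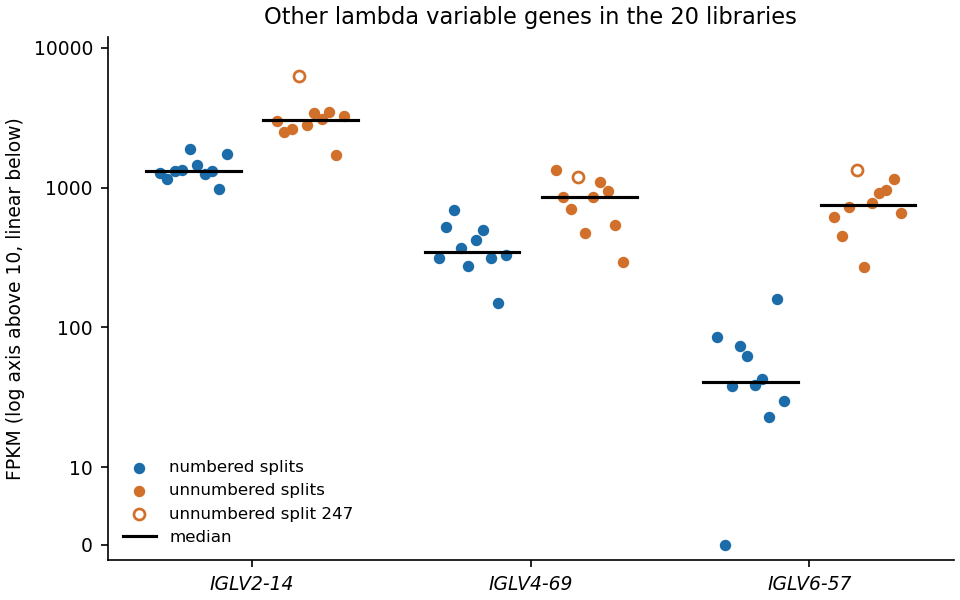
FPKM of IGLV2-14, IGLV4-69 and IGLV6-57 in each split (log axis above 10, linear below), numbered splits left of unnumbered ones, with a bar at each median and an open circle for split 247. IGLV6-57 lies at 0 to 159 FPKM in numbered and 271 to 1333 FPKM in unnumbered splits, with no overlap.

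The remaining light chain rows were low or listed at 0. IGLVI-70 had 108 FPKM in numbered split 3 and was listed at 0 in the other 19 libraries. IGLC6 had at most 6.96 FPKM in numbered and 1.22 FPKM in unnumbered splits, and IGLV2-11 was above 0 in 0 numbered and 2 unnumbered splits. None of the 7 IGLJ rows was above 0.

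**Figure D4:**
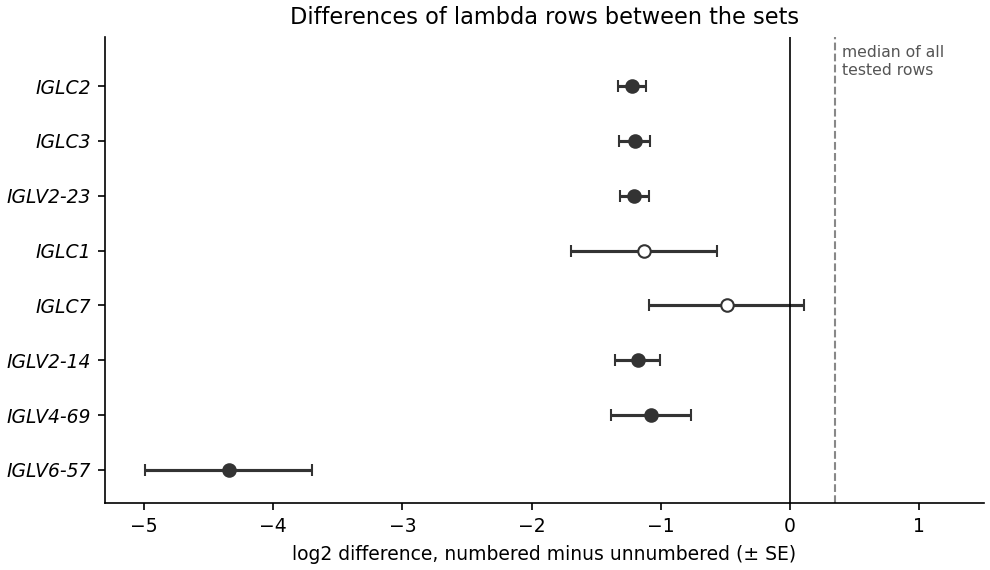
Log2 difference (numbered minus unnumbered) with its SE for the 5 tested members and the V genes IGLV2-14, IGLV4-69 and IGLV6-57, filled where the limma adjusted p was below 0.05. The rows of IGLC2, IGLC3, IGLV2-23 and IGLV2-14 lie between -1.22 and -1.18, IGLV6-57 lies at -4.34, and the dashed line marks the median of all tested rows at 0.35.

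Rows whose splits ordered most like the lambda sum were sought outside the light chain loci, among 809 rows at 1 FPKM or more in all 20 libraries, by the smaller of the rho in the 2 sets (n = 10 each). RP5-857K21.4 had 0.855, RPL41P1 0.818, AC091304.2 0.806, RP11-750B16.1 0.794 and the ribosomal protein gene RPL41 0.745, beside a median of -0.10. RPL41 and its pseudogene RPL41P1 are near copies and are not separate cases. Between the sets, RPL41P1 (means of 4939 FPKM in numbered and 2434 FPKM in unnumbered splits), AC091304.2 (476 and 226 FPKM) and RPL41 (4986 and 2541 FPKM) had higher means in numbered splits, opposite to the lambda sum, and RP5-857K21.4 (1.43 and 4.37 FPKM) and RP11-750B16.1 (99.7 and 324 FPKM) had lower ones.

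Genes that act with light chains were read as lists. The lists were chosen with earlier results of these data known, so their counts are not independent support. Of 15 genes of heavy chains and other partners, 7 were tested, 1 was higher in numbered and 1 in unnumbered splits, and the median log2 difference was 0.30. Over all tested rows 3.93% were higher in numbered and 1.38% in unnumbered splits, with a median of 0.35, and the lists below are set beside the same values. CD79A, a signalling chain of the B cell receptor, averaged 112 ± 52.2 FPKM in numbered and 15.9 ± 35.7 FPKM in unnumbered splits (SD, n = 10 each, log2 difference 4.69, limma adjusted p = 0.00274). IGJ, the joining chain that links antibody units into polymers, averaged 39.0 ± 70.7 and 486 ± 201 FPKM in the same order (log2 difference -6.33, limma adjusted p = 0.000103).

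The heavy chain constant genes that could be tested did not pass. IGHA1, the most abundant, averaged 684 ± 277 FPKM in numbered and 766 ± 258 FPKM in unnumbered splits (SD, n = 10 each, log2 difference -0.20, limma adjusted p = 0.749). IGHM averaged 37.4 ± 40.3 FPKM in numbered and 159 ± 202 FPKM in unnumbered splits (log2 difference -2.13, limma adjusted p = 0.378). VPREB3, a relative of the surrogate light chain partner VPREB1, averaged 66.6 ± 92.4 FPKM in numbered splits and was listed at 0 in all unnumbered ones (limma adjusted p = 0.125). IGHG1 to IGHG4, IGHE and VPREB1 were listed at 0 in every library.

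Of 15 factors of light chain transcription and recombination, 12 were tested, 0 were higher in numbered (3.93% of all rows) and 1 in unnumbered splits (1.38% of all rows), and the median was -0.05, beside 0.35 over all rows. IRF4, which acts at light chain enhancers, averaged 70.4 ± 55.7 FPKM in numbered and 227 ± 100 FPKM in unnumbered splits (SD, n = 10 each, log2 difference -1.94, limma adjusted p = 0.0193). MEF2C averaged 101 ± 123 and 127 ± 60.7 FPKM in the same order (limma adjusted p = 0.460). SPIB, an ETS factor, averaged 16.6 ± 17.4 FPKM in numbered and 4.84 ± 13.8 FPKM in unnumbered splits (limma adjusted p = 0.0830). EBF1 had a higher mean in numbered splits (log2 difference 1.42, limma adjusted p = 0.545). POU2AF1 had a higher mean in unnumbered splits (log2 difference -1.33, limma adjusted p = 0.455). The recombinase gene RAG2 was listed at 0 in every library.

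Of 16 genes that fold and assemble chains in the endoplasmic reticulum, 15 were tested, 0 were higher in numbered (3.93% of all rows) and 4 in unnumbered splits (1.38% of all rows), and the median was -0.96, beside 0.35 over all rows. HSPA5, the chaperone BiP that holds unpaired heavy chains, averaged 7.38 ± 16.8 FPKM in numbered and 144 ± 67.0 FPKM in unnumbered splits (SD, n = 10 each, log2 difference -5.49, limma adjusted p = 4.07e-05). HSP90B1, a chaperone of secreted proteins, had 44.8 to 191.4 FPKM in numbered and 196 to 620 FPKM in unnumbered splits, with no overlap (log2 difference -1.68, limma adjusted p = 0.00322). The log2 difference was -1.82 for calreticulin (CALR, limma adjusted p = 0.00134) and -1.34 for the prolyl isomerase gene PPIB (limma adjusted p = 0.0233).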

How the data were processed

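The 20 deposited files held FPKM per gene, with confidence bounds and a status. The submitters' processing notes name TopHat 1.4.1 and Cufflinks 2.0.2 as the authors' tools. No source used here gives the genome build of the files. The labels of other libraries name hg19 and GENCODE 13. Coordinates are those of the files, counted from 1, and sequences come from GENCODE 29. Their 100-base read length is per the labels.

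Rows with LOWDATA in every library (5797) or FAIL in any (128) were left out, and 10506 rows with a mean FPKM of 1 or more were tested with limma 3.58.1 (R 4.3.3, trended variance) on log2(FPKM + 1). P-values were adjusted after Benjamini and Hochberg, and 0.05 was the threshold. Fold changes on this scale understate those of low genes. For sums and shares, 2-sided permutation tests used 100000 resamples and were exact for smaller groups (Python 3.11.15, scipy 1.17.1). Kappa tests that had been planned could not be made. P-values weigh the difference between the sets against the spread between splits, which may be technical. Each n counts splits, and since a set may be 1 pool, the p-values do not cover the spread between pools. Depth and fragment numbers came from the upper bound, taken to be the value plus 2 standard errors of a Poisson count (largest residual 0.963%).

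The members and gene lists were chosen with earlier results of these data known. Other genes were named by rule: the 5 rows most like the lambda sum, the 10 highest other rows of the light chain loci, and, per list, the 3 members highest in FPKM and up to 3 lowest in p. List members at 0 FPKM in every library were also named. P-values for the 4 V gene shares were added later. The alternatives tried were other pseudocounts, no filter on low values, other scalings, a rank-sum test, splits 5 to 8 left out or as a covariate, and each library left out. The statistics were tested on simulated data. 1 cell type marker is not reported here and was left out of the marker sums.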

Additional observations from a re-analysis of the deposited data

Results flagged for a closer look

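A split was picked out when its gap to the nearest other split exceeded what Dixon's test allows for 10 samples. This was looked for in 42 sets of 10 values, of which chance picks about 1 in 20, and 13 were found. Many of these sets hold the same lambda genes, or sums and ratios of them. The 13 are therefore not separate cases and cannot be weighed against that rate.

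Unnumbered split 247, the shallowest library, was the highest of its set in 8 of them. It had 70411 FPKM of IGLC2, 41624 FPKM of IGLC3, 31474 FPKM of IGLV2-23, 6270 FPKM of IGLV2-14, 47.8 FPKM of IGLC1 and 72.4 FPKM of IGLC7. Its lambda constant sum was 112155 FPKM, or 9.30% of all FPKM, against 76078 FPKM in the next split.

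Unnumbered split 252 stood apart in 3 ratios. Its IGLV2-23 level was 0.356 of the lambda constant sum, and its IGLV2-14 level was 11.01% of that of IGLV2-23 and 9.03% of the 4 V genes. Among numbered splits, split 5 had the highest IGLC1 level, 18.4 FPKM against 12.2 FPKM in the next, and split 9 the highest share of IGLV6-57 among the 4 V genes, 2.12% against 0.889%.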

How the results depend on the processing

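No paired analysis was possible because the numbered and unnumbered splits share no replicate numbers. IGLC2, IGLC3 and IGLV2-23 passed the threshold, and were lower in numbered splits, under each alternative run. IGLC1 passed with no filter on low values (adjusted p = 0.000857) and by the rank-sum test. The rank-sum test called 953 rows, 706 higher in numbered and 247 higher in unnumbered splits, and TPM scaling called 219 higher in unnumbered splits. Leaving out single libraries gave 524 to 614 calls. Without split 252, chosen after seeing the data, the IGLC7 share difference of 0.0215 percentage points had an adjusted p of 0.0735, and leaving out single libraries gave 0.0183 to 0.0273. Of values far from any threshold, the difference of the IGLC1 share was -0.00181 without splits 5 to 8 and -0.00102 to 0.00186 without single libraries, the ratio of IGLV2-23 to the lambda sum differed by -0.00272 and by -0.0026 to 0.00876, and the IGLV2-14 share differed by -0.052 without splits 5 to 8. IGLV4-69 lost the threshold with no filter (adjusted p = 0.111), without splits 5 to 8 (0.121), with their run as a covariate (0.113) and without split 247 (0.0621). Depth limits IGLC1 and IGLC7, above all in split 247. The cause of these changes was not tested. Kappa alternatives were not run.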
